A study of Mus musculus with 16 samples.

Results

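The Rab GTPase genes were taken as every gene whose symbol is Rab followed by a number and, at most, 1 letter from a to d. The rule gave 59 of the 54146 genes in the tables, and 57 of the 59 passed the filter on variance and on zero counts and were tested beside 15204 genes in all. Rab33a and Rab44 did not pass it. Expression was measured by RNA-seq of whole pancreatic islets from the founder strains of Diversity Outbred mice, in 91 libraries held by 16 samples of 1 strain and 1 sex each. A high-fat diet was given to all mice and all were aged 26 weeks, so no group on another diet or of another age could be compared. The groups were the inbred strains 129S1_SvImJ (129, n = 10), A_J (AJ, n = 14), C57BL/6J (B6, n = 18), CAST_EiJ (CAST, n = 14), NOD_ShiLtJ (NOD, n = 10), NZO_HlLtJ (NZO, n = 4), PWK_PhJ (PWK, n = 5) and WSB_EiJ (WSB, n = 16).

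Rab proteins are small GTPases that mark membranes. In the GTP-bound form a Rab recruits effectors that move, tether or fuse vesicles, guanine nucleotide exchange factors load it with GTP, and GTPase-activating proteins switch it off. In the beta cell, Rab3 and Rab27 proteins and their effectors act in docking and release of the insulin granule.

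Libraries held 16928552 to 35196145 expected counts, with a median of 27485367, and a floor of 3 counts stood for 0.0852 to 0.177 CPM (expected counts scaled to the library total). The 8 beta cell markers summed to between 166354 and 572001 TPM (the level of a transcript scaled by its length and by the library) per library. Other cells were present too. The summed TPM of 12 leukocyte markers had a median of 694 in NOD, where it ran from 44.7 to 4160, and medians of 19.6 to 68.9 in the other strains. The summed TPM of 10 acinar markers had medians from 6229 in AJ to 112537 in PWK and reached 346475 in a B6 library. In such whole-islet samples, fewer cells of a type and less RNA per cell cannot be told apart. In 12 libraries the sex-linked transcripts went against the sex label, 6 of them in 129, 2 in NOD and 4 in WSB. Whether each library is a separate mouse is not stated in the sources used here, so the p-values measure the spread between libraries. The 129, NOD, NZO and PWK libraries all carried numbers from 66 to 100 and those of the other strains from 1 to 65, so anything that follows the numbers cannot be told apart from strain in comparisons across these sets.

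The Rab transcripts together had a median of 1636 TPM per library, with a range of 755 to 2020. By mean level, 3 genes stood at 100 TPM or more, 32 between 10 and 100, 17 between 1 and 10, and 7 under 1 TPM. All levels given next are means ± SD over the 91 libraries in TPM, a unit that is scaled by transcript length and so can be set side by side between genes.

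Among the genes of the secretory granule, Rab27a, which docks granules at the plasma membrane, had the highest level at 78.8 ± 19.7 TPM. Rab3a (64.6 ± 16.8), Rab37 (54.7 ± 20.04), Rab3d (53.1 ± 10.9) and Rab3b (33.7 ± 12.8), which act in regulated exocytosis, followed. Rab26, known from the secretory granules of acinar cells, was at 3.10 ± 1.85, Rab3c at 2.26 ± 1.27 and Rab27b, the closest relative of Rab27a, at 0.891 ± 0.525 TPM. These 8 genes made up 18.5% of the summed Rab level.

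The genes of the endoplasmic reticulum and Golgi made up 26.7%. Rab2a (115 ± 22.2 TPM) and Rab1a (104 ± 20.8), which act in transport between these organelles, were among the 3 most abundant Rab genes, and their paralogs Rab1b (63.6 ± 12.6) and Rab2b (7.78 ± 3.37) were lower. Rab6a, which acts in transport back through the Golgi, was at 55 ± 14.8 and its paralog Rab6b, known as the neuronal form, at 3.48 ± 3.80. Rab18, found on lipid droplets, was at 44.8 ± 9.30, and the Golgi members Rab33b, Rab43 and Rab30 were at 13.1 ± 2.71, 12 ± 5.70 and 0.870 ± 1.91. Rab33a, at 0.0714 ± 0.0722, had a count of 0 in 24 of the 91 libraries.

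On the early endosome, Rab5c (44.9 ± 12.5 TPM), Rab5a (42.1 ± 9.68) and Rab5b (39.3 ± 7.91), which drive its fusion, had levels close to one another. Rab4b (32 ± 7.89) and Rab4a (14.3 ± 2.77), of rapid recycling, and Rab21 (18.5 ± 4.72), Rab22a (14.1 ± 3.15) and Rab31 (9.09 ± 3.47) completed the group. For recycling and polarised transport, Rab11a (70.5 ± 15.7) and Rab11b (65 ± 13.8) of the recycling endosome led, ahead of Rab14 (54.6 ± 10.9), Rab10 (34 ± 6.37), the epithelial Rab25 (33.3 ± 5.75), Rab8a (32.3 ± 7.94) and Rab35 (14.5 ± 3.65). Rab8b (4.80 ± 3.56), the tight junction member Rab13 (3.52 ± 1.34), Rab17 (1.33 ± 0.846) and Rab15 (1.16 ± 0.788) were the lowest.

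Rab7, which carries late endosomes to the lysosome, had the highest mean of all at 131 ± 25.8 TPM. Rab24 (45.5 ± 9.31), Rab34 (17.6 ± 4.82), Rab36 (14.1 ± 4.58) and Rab9 (11 ± 2.18) followed in the late endosome and lysosome group. Rab29 (2.28 ± 2.24), Rab9b (1.53 ± 0.559), Rab32 (1.02 ± 2.50), Rab7b (0.538 ± 0.796) and Rab38 (0.453 ± 0.571) were low on average, with Rab32 and Rab38 known from melanosomes and related organelles. Of the further members, Rab28 (32 ± 6.59) and Rab12 (28.2 ± 7.40) were above 20 TPM, and Rab39b (13.6 ± 3.44), Rab40c (10.2 ± 1.95), Rab20 (8.49 ± 4.48), Rab23 (6.43 ± 2.01), Rab40b (3.45 ± 0.996), Rab19 (3.30 ± 1.71), Rab39 (1.24 ± 0.471) and Rab42 (0.359 ± 0.239) lay lower. Rab44, at 0.0210 ± 0.0409 TPM, had a count of 0 in 48 libraries.

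**Figure D1:**
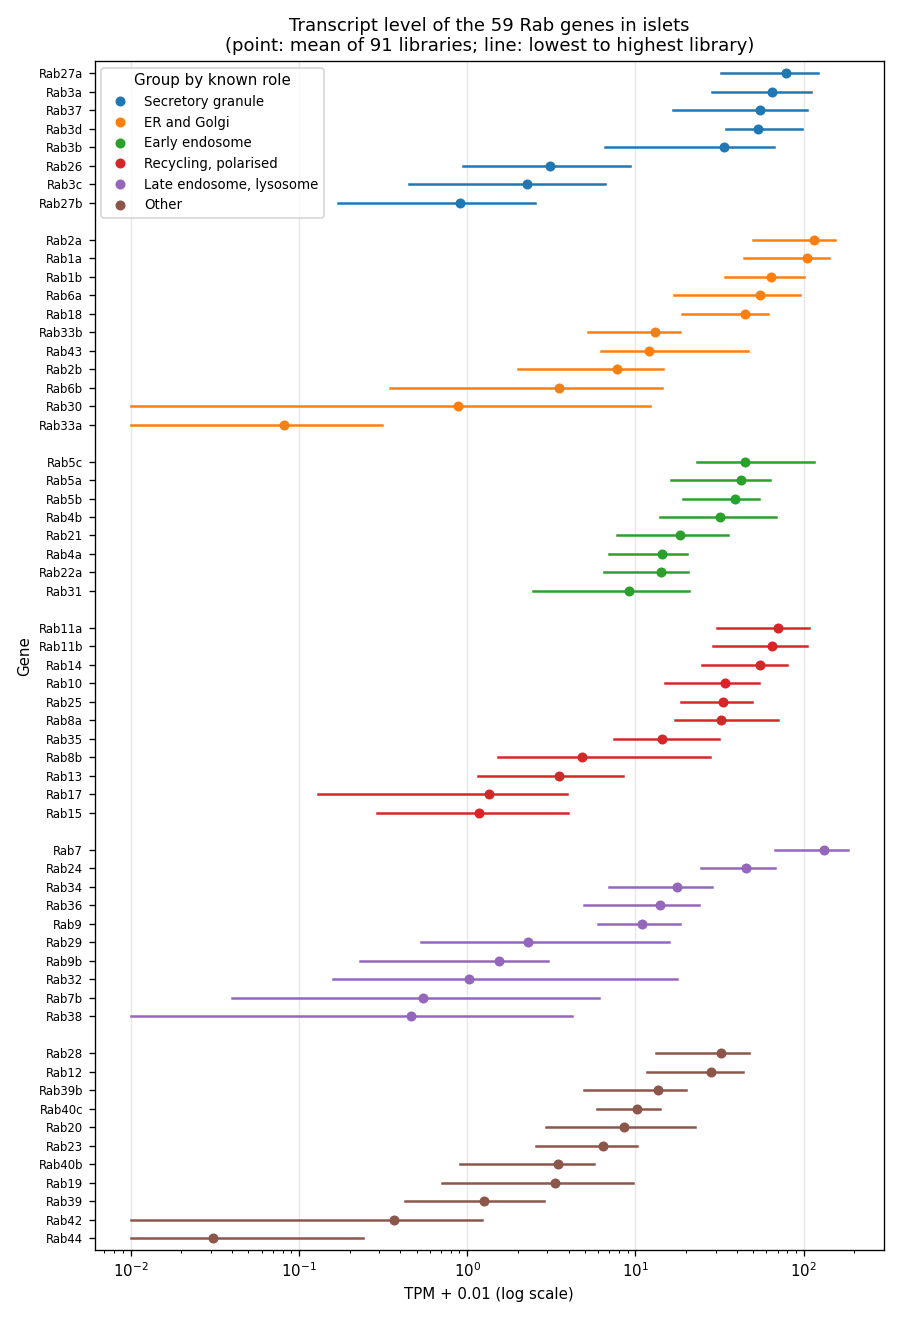
Mean TPM of the 59 Rab genes over 91 libraries (points) with the lowest and the highest library (lines), on a log axis after adding 0.01 and grouped by known role. The means run from 0.0210 TPM for Rab44 to 131 TPM for Rab7, and the lines of Rab30, Rab32, Rab7b and Rab38 are among the widest.

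To ask which Rab genes differ between strains, expected counts were scaled by the upper quartile and tested with edgeR's quasi-likelihood test, with sex as a covariate and Benjamini-Hochberg adjustment over all tested genes. A strain effect (adjusted p under 0.05) was called for 56 of the 57 tested Rab genes, where 97.4% of all tested genes were called. Rab9 was the exception. The fitted difference between the highest and the lowest strain reached 2-fold or more in 22 of 57 Rab genes (38.6%), against 44.4% of all genes. The median of this log2 difference was 0.56 for the Rab genes and 0.87 for all genes. A share of Rab genes close to or under that of all genes is thus what these calls show, and the members that differ are described one by one. Strain differences are given as normalised counts, since the strains' medians over all genes moved by -0.18 (CAST) to 0.19 (129) on the log2 scale when TPM was used instead.

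By role, 5 of 8 secretory granule genes passed 2-fold, with a median log2 difference of 1.34 (all genes 44.4% and 0.87). The other groups had 4 of 10 (endoplasmic reticulum and Golgi), 1 of 8 (early endosome), 4 of 11 (recycling), 4 of 10 (late endosome and lysosome) and 4 of 10 (further members). With summed leukocyte and acinar markers as covariates, Rab26 (0.92), Rab8b (0.52) and Rab29 (0.59) were under 2-fold, which left 4 granule, 3 recycling and 3 late endosome genes, and Rab32 went from 3.89 to 1.11. The median was smallest in the early endosome (0.40) and recycling (0.40) groups, and the gene with the smallest difference was Rab10, at 0.19 between CAST and 129, followed by Rab9 at 0.20. Rab genes were higher in 1 strain than in each of the other 7 in 13 of 57 cases (22.8%), against 25.8% of all genes, and lower in 12 of 57 (21.1%), against 21.7%. The count of 13 was smaller with the marker covariates and when log2 TPM was fitted, where 13.9% and 13.5% of all genes were called higher.

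**Figure D2:**
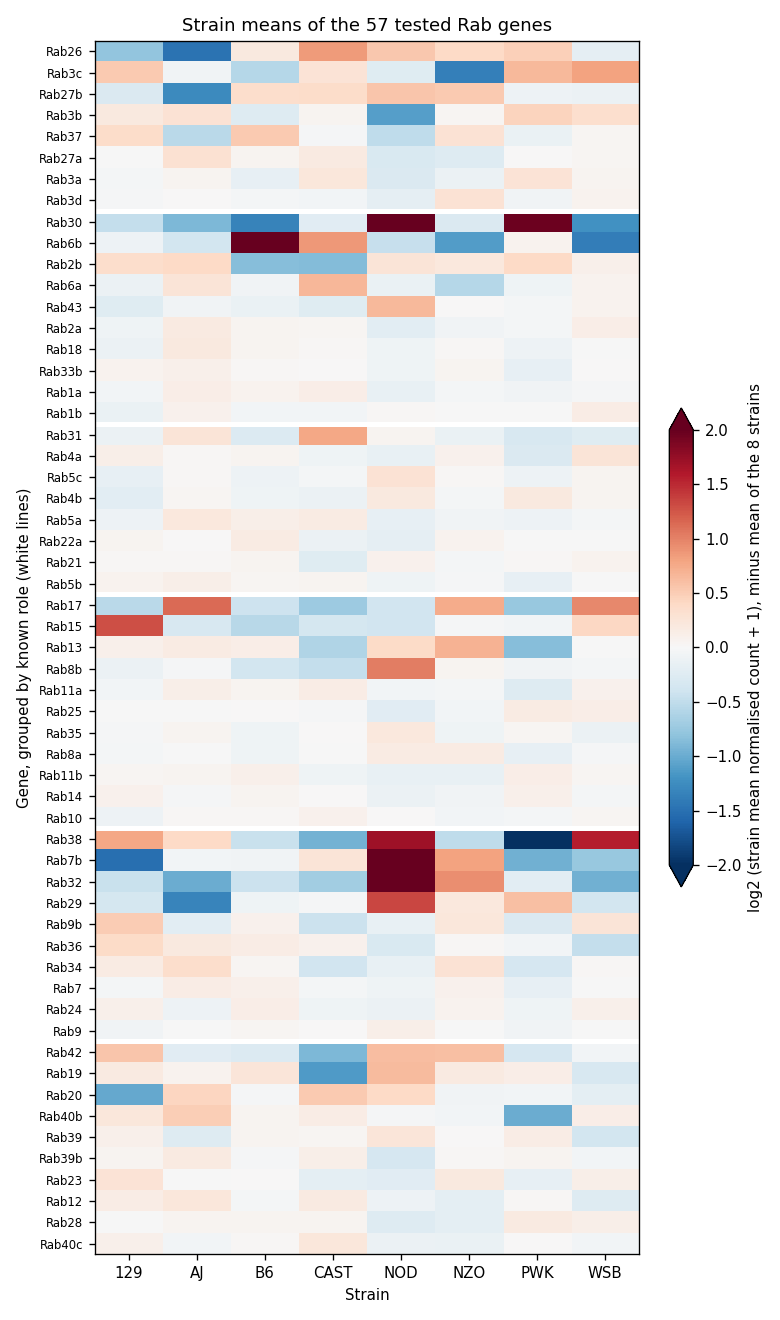
Strain means of the 57 tested Rab genes as log2 normalised count minus the mean of the 8 strains, in rows grouped by known role and ordered by fitted difference. Red is above and blue below the mean of the strains, with the scale ending at 2 in both directions, and the cells past its ends are Rab6b in B6 and Rab30, Rab32 and Rab7b in NOD, all above the mean, and Rab38 in PWK, below it.

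Rab6b and Rab2b showed the sharpest strain patterns. For these, some strains lay apart from the rest with no library in common between both ranges, which held for 2 of 57 Rab genes (3.51%) and for 6.08% of all genes. Rab6b, at chr9:103111787-103185276 on the plus strand of GRCm38, and Rab6a, at chr7:100607410-100641268 on the plus strand, are on different chromosomes, as are Rab2b, at chr14:52261759-52279545 on the minus strand, and Rab2a, at chr4:8535644-8607778 on the plus strand.

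The promoters of the 3 paralog pairs with the highest share of variance between strains in their ratio are shown so that the genes behind these patterns can be located, as far as RefSeq's table for GRCm38.p6 holds them. It matched 48 of the 59 members, and Rab2a has no entry. Each run covers 250 bases before and 50 after the start of transcription, is written 5′ to 3′ on the gene's strand, and is the reference sequence, which was not compared between strains here. Capitals mark matches on either strand to the TATA box letters TATAAA, the letters CCAAT, the GC box letters GGGCGG or the E-box letters CACGTG, and overlapping matches run together.
Rab6a (chr7:100607336-100607635, plus strand): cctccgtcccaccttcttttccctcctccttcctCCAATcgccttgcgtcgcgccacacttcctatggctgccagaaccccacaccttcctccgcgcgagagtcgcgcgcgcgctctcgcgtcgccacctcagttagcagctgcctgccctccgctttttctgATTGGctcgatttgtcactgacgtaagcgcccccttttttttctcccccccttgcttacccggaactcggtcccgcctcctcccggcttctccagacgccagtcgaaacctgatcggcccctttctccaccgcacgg
Rab6b (chr9:103111824-103112123, plus strand): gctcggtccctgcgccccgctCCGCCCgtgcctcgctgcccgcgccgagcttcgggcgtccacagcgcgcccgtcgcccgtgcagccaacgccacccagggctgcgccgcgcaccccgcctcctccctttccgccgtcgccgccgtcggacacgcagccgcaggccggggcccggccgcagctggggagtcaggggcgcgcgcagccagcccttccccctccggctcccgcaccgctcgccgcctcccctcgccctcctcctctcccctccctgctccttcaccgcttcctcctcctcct
Rab2b (chr14:52279346-52279645, minus strand): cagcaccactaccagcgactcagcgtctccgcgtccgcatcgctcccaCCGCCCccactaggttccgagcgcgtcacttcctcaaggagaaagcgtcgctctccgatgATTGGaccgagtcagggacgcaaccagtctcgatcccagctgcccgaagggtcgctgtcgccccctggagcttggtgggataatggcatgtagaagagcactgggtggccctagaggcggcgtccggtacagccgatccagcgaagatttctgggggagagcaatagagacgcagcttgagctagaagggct
Rab3b (chr4:108878820-108879119, plus strand): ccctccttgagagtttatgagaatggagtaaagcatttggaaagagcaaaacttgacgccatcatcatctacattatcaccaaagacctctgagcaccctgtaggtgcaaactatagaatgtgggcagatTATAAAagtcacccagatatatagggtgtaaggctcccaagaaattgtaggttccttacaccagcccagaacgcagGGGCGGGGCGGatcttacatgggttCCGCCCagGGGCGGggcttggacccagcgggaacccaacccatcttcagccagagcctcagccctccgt
Rab3c (chr13:110280157-110280456, minus strand): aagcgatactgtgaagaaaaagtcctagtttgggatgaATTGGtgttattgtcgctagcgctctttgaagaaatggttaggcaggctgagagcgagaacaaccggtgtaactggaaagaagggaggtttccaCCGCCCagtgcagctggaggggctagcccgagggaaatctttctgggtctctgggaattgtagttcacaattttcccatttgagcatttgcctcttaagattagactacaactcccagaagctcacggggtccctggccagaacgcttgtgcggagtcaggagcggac
Rab6b's promoter was 78.7% G and C with 1 GGGCGG match, and Rab6a's was 62.7% with 2 CCAAT matches and no GGGCGG. Rab3b's had 1 TATAAA and 4 GGGCGG matches. Of 32544 distinct promoters in the table, GGGCGG was found in 35.9%, CCAAT in 37.4%, TATAAA in 13.6% and CACGTG in 7.17%. Among the 60 promoters of Rab genes, 41 held GGGCGG, 26 CCAAT, 4 TATAAA and 6 CACGTG. These are matches of letters and not measured sites.

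Rab6b ran from 1024 to 1579 normalised counts in the 18 B6 libraries, with a median of 1199. CAST was next, from 212 to 757 with a median of 389, and the median was 196 in 129, 177 in AJ, 161 in NOD and 80.7 in WSB. The 4 NZO libraries were at 87.0, 90.6, 102 and 127, and the 5 PWK libraries at 159, 214, 222, 250 and 316. Every B6 library was thus above every library of the other strains, CAST overlapped with 129, AJ, NOD and PWK, and WSB was the lowest strain. In TPM, B6 stood at 10.4 ± 2.67 (SD, n = 18) and the other strains at 1.76 ± 1.12 (n = 73). The fitted log2 difference from B6 to the lowest strain, WSB, was 3.88 (SE 0.15, edgeR adjusted p = 1.58e-39). Here and in what follows, the highest and the lowest strain were picked from the fit that gives the p.

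Rab6a had another order. It was highest in CAST, at 4320 to 6122 normalised counts with a median of 5462, and AJ followed at 3644 to 5022 with a median of 3986. The 4 NZO libraries, at 2024, 2198, 2332 and 2772, made up the lowest strain, while the medians of the other strains lay between 3141 (129) and 3617 (WSB). The ranges of CAST and NZO did not overlap, but AJ overlapped with CAST, 129, B6, NOD and WSB. CAST was higher than AJ, its nearest strain, by a log2 difference of 0.40 (SE 0.07, largest edgeR adjusted p over the 7 comparisons 6.25e-07), and NZO was lower than its nearest strain, NOD, with a log2 difference of -0.40 (SE 0.11, adjusted p = 0.00496). On log2 TPM both kept their direction and missed the threshold. Rab6a overlaps Mrpl48 on the opposite strand. Strand-aware counting is not stated in the sources used here, so reads of both genes may be mixed where exons overlap. This and the other overlaps given are of gene coordinates, and shared exons were not checked.

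Rab2b was low in B6 (146 to 244 normalised counts) and CAST (174 to 230), which together spanned 32 libraries. The other 59 libraries ran from 346 to 595. AJ had the highest median, 512, and WSB, at 414, the lowest of the 6 strains above the gap. The fitted log2 difference from AJ to CAST was 1.27 (SE 0.05, edgeR adjusted p = 1.13e-36). Rab2a differed by at most 0.40 between AJ and NOD (SE 0.06, adjusted p = 1.79e-08, and with leukocyte and acinar sums as covariates 0.26, between WSB and 129), with strain medians of 4830 to 6110 and ranges that overlapped among all strains. Rab2b also shares its locus with Tox4 on the opposite strand.

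**Figure D3:**
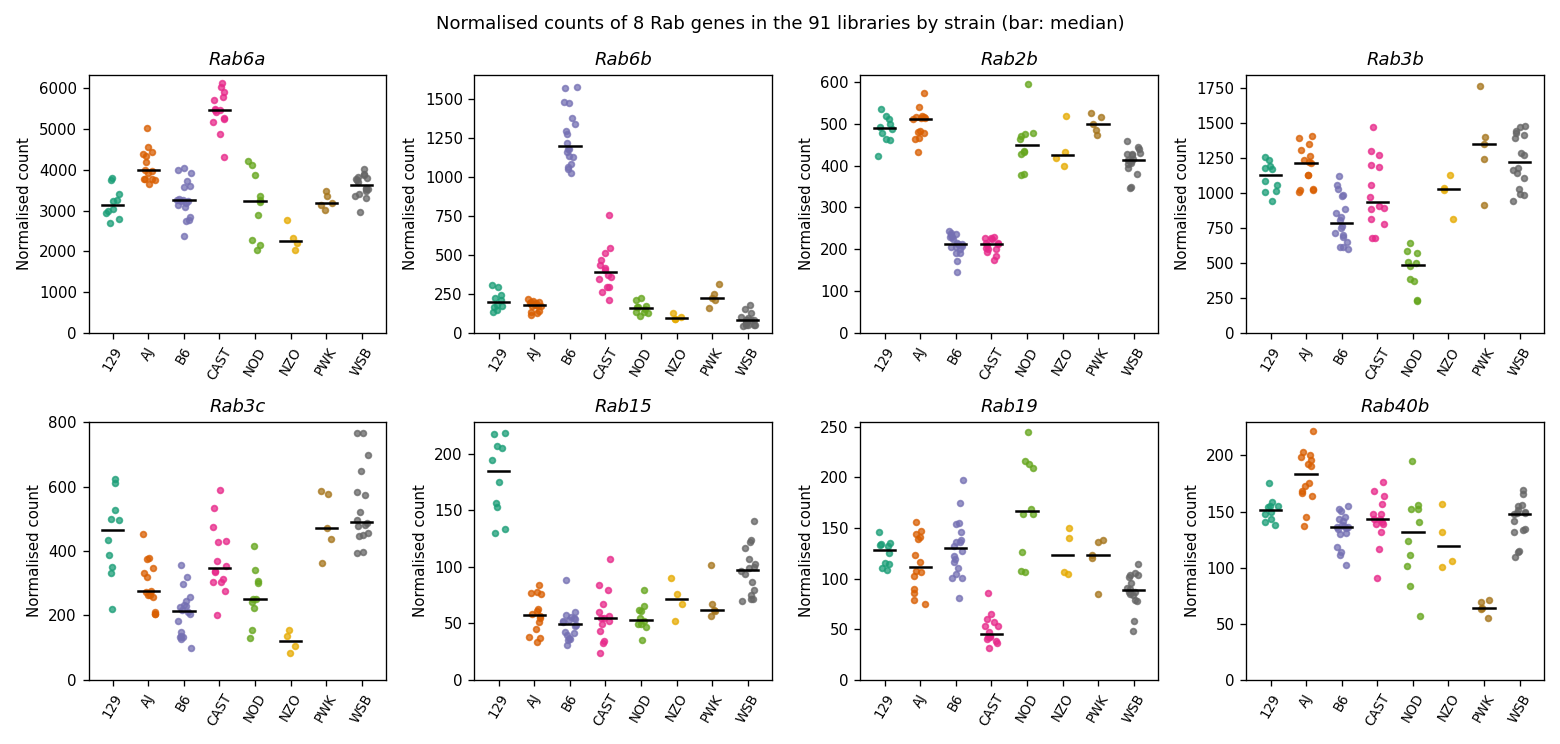
Normalised counts of 8 Rab genes in each of the 91 libraries by strain, with the median as a bar and axes that start at 0. Rab6b in B6 sits at 1024 and above while no other library passes 757, and Rab2b in B6 and CAST stays at or under 244 while the other strains start at 346.

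The paralogs of a subfamily were compared by the log2 ratio of their TPM values after adding 0.1 TPM, in which the library's scaling largely cancels. The symbols gave 14 subfamilies with 31 members and 21 pairs, and 18 pairs had a mean of at least 1 TPM in both genes. In a permutation test of the variance between strains over libraries with 100000 draws and adjustment over the 18 pairs, the ratio differed between strains in all 18. For 14 of them p was 1e-05, the smallest these draws can give. Without the libraries against their sex label, or without NZO replicate 4, 17 of the 18 pairs differed. The choice of pairs was made with earlier results known, so the size of each difference is the more useful value. No stretch of 50 bases is shared by the transcripts of any of these pairs.

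The share of variance that lay between strains ranged from 17.4% to 94.3%. Rab2a to Rab2b had the highest share, 94.3%, with log2 ratios from 4.76 ± 0.13 (SD) in CAST to 3.30 ± 0.19 in NOD. Rab6a to Rab6b followed at 90.9% and had the widest span, from 6.03 ± 0.54 in WSB to 2.15 ± 0.34 in B6. Rab6a was the more abundant in 91 of 91 libraries, B6 included. In the Rab3 subfamily, Rab3b to Rab3c went from 5.35 ± 0.60 in NZO to 3.12 ± 0.31 in NOD (64.8%), and Rab3a to Rab3c from 6.26 ± 0.63 in NZO to 4.16 ± 0.57 in WSB (59.4%). Rab3a to Rab3b was 1.84 ± 0.42 in NOD and 0.71 ± 0.45 in AJ (47.6%).

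Rab40b to Rab40c was lowest in PWK at -2.66 ± 0.23 and highest in AJ at -1.09 ± 0.28 (60.9%). NOD had the lowest ratio of Rab8a to Rab8b, 2.14 ± 0.56, of Rab5b to Rab5c, -0.56 ± 0.35, of Rab5a to Rab5c, -0.59 ± 0.57, and of Rab4a to Rab4b, -1.61 ± 0.56, and in each of these its SD was the largest of the 8 strains. Over the NOD libraries Rab8b and Rab5c rose with the summed leukocyte markers (Pearson r 0.97 and 0.94), whose part in the ratios was not tested. Rab4b shares 58.1% of its 50-base stretches with other genes, so its level and its ratio to Rab4a are uncertain. The smallest shares were those of Rab3a to Rab3d (17.4%, permutation adjusted p = 0.0217) and Rab5a to Rab5b (18.1%, permutation adjusted p = 0.0183). The remaining pairs, of Rab1, Rab3, Rab9, Rab11 and Rab39, had shares between 30.9% and 56.2%.

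**Figure D4:**
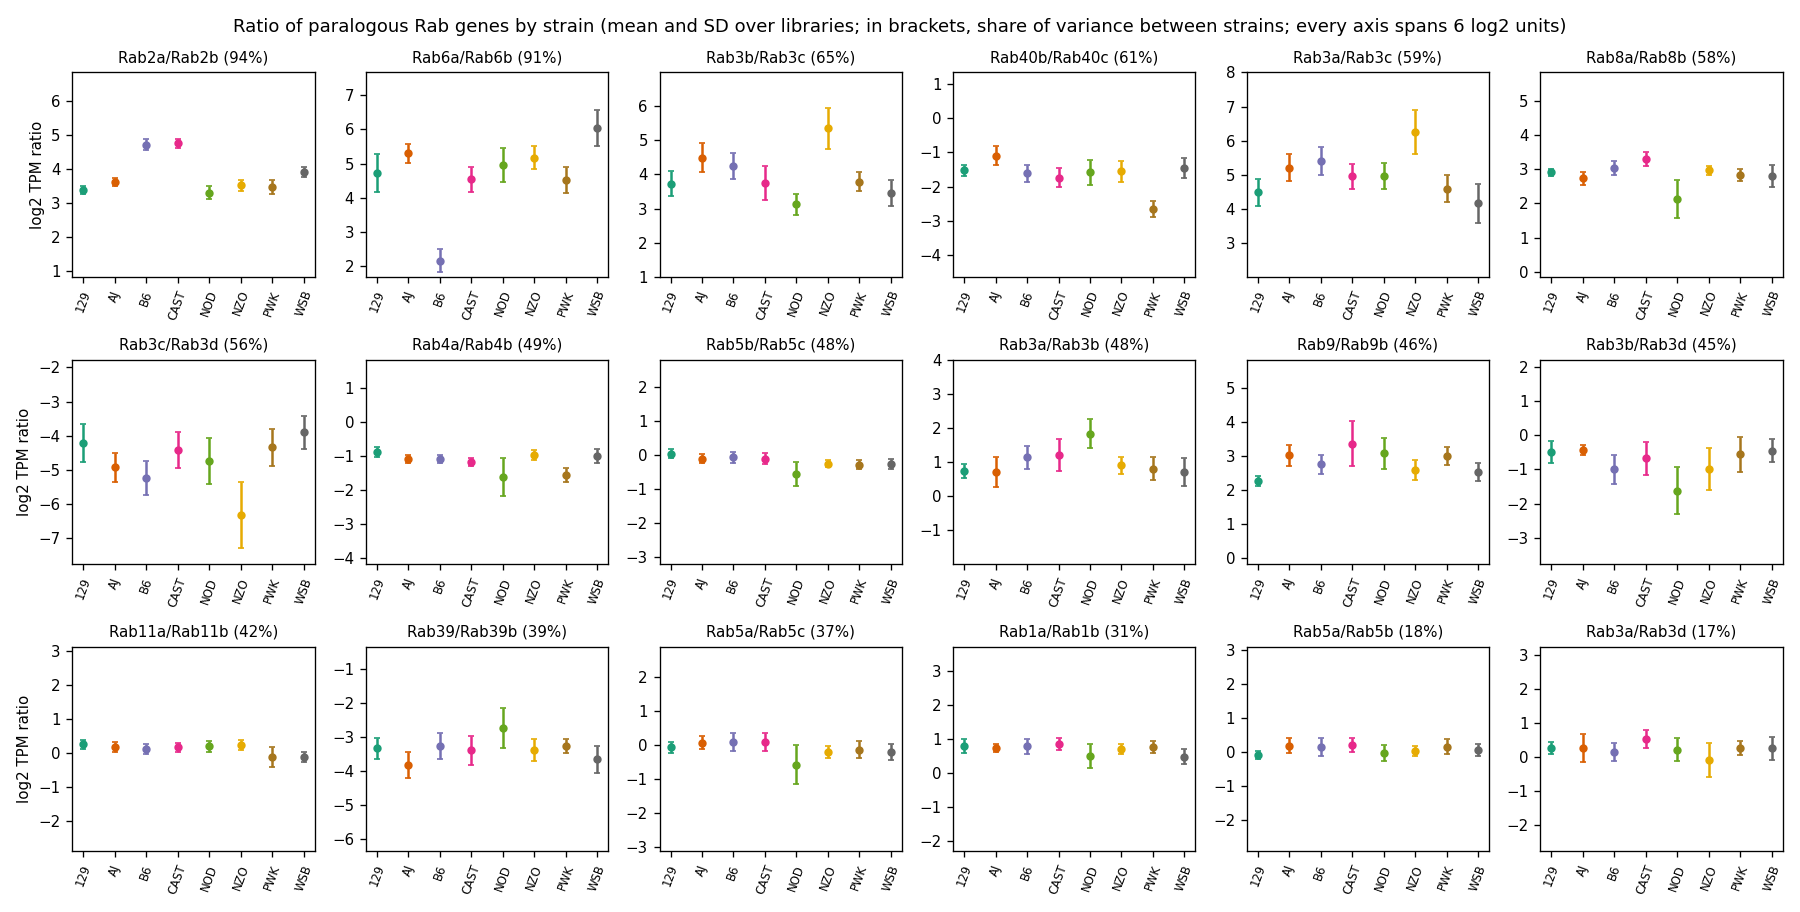
Log2 TPM ratio of 18 paralog pairs by strain as mean and SD over libraries, ordered by the share of variance between strains, with axes that each span 6 log2 units. Rab6a to Rab6b drops to 2.15 in B6, Rab2a to Rab2b rises in B6 and CAST (4.76 in CAST), and the strain means of the pairs in the last row span at most 1.08.

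Of the secretory granule genes, Rab3b was lowest in NOD, where it ran from 228 to 646 normalised counts with a median of 489. B6 was next with a median of 786 (597 to 1124), and the highest strain, PWK, held 913, 1241, 1348, 1396 and 1767. Rab3b was lower in NOD than in B6 by a log2 difference of -0.85 (SE 0.12, largest edgeR adjusted p over the 7 comparisons 1.41e-08), and 9 of the 10 NOD libraries were under every library of the other strains. Rab3c was lowest in NZO, at 82.3, 106, 137 and 155 against medians of 213 (B6) to 492 (WSB), with a log2 difference to B6 of -0.84 (SE 0.24, adjusted p = 0.00312). NZO overlapped with the lower B6 and NOD libraries, and WSB, 129 and PWK formed the high end.

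Rab37 had medians of 1682 in AJ and 1842 in NOD at the low end, 2325 in CAST, 2363 in PWK and 2616 in WSB, and 3176 in NZO, 3207 in 129 and 3592 in B6 at the high end. AJ and B6 did not overlap, with a log2 difference from B6 to AJ of 1.07 (SE 0.09, edgeR adjusted p = 1.31e-18). It overlaps Cd300lf on the opposite strand. Rab26 had its highest mean in CAST (67.3 to 472, median 109), although the median was higher in NZO, at 130, and was lowest in AJ (24.5 to 54.5, median 33.3), with a log2 difference of 2.36 (SE 0.35, adjusted p = 9.55e-09). With leukocyte and acinar sums as covariates, the widest difference of Rab26 was 0.92, between NZO and WSB. Rab27b was lowest in AJ too, at 20.6 to 57.7 with a median of 37.4, against medians of 63.7 (PWK) to 108 (NZO), and the log2 difference to 129 was -0.98 (SE 0.38, largest adjusted p = 0.0267). AJ also had the lowest acinar marker sums, 1834 to 23830 TPM. With the same covariates AJ was no longer the lowest strain for Rab27b and was above PWK, then the lowest, by a log2 difference of 1.5. Without NZO replicate 4 or PWK replicate 4 and with limma-voom the call for Rab27b was lost, at -0.97, -0.63 and -0.81.

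Rab3a, Rab3d and Rab27a, the most abundant granule genes beside Rab37, varied less. Rab27a had medians from 4067 in NOD to 6045 in AJ, Rab3a from 1677 in NOD to 2292 in CAST, and Rab3d from 4191 in NOD to 5267 in NZO, with overlap among all strains for Rab3d. For Rab27a, NZO (3762 to 4760) was under AJ (5040 to 7920), and for Rab3a, PWK (2167 to 2628) was above 129, B6, NOD and NZO, which reached at most 2141. The fitted log2 differences were 0.61 (AJ to NOD, SE 0.09), 0.56 (PWK to NOD, SE 0.14) and 0.50 (NZO to NOD, SE 0.14), with edgeR adjusted p of 3.06e-09, 0.000226 and 0.00238. With the marker sums as covariates, NOD was the lowest strain for none of the 3, and the widest differences were 0.32 (Rab27a, AJ to NZO), 0.56 (Rab3a, PWK to B6) and 0.55 (Rab3d, NZO to CAST).

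The other most abundant Rab genes also varied little between strains. Rab7, of the late endosome, had medians from 5508 normalised counts in PWK to 6562 in NZO. The 5 PWK libraries, at 5090 to 5575, were under every library of 129, B6, AJ and NZO, and the fitted log2 difference from AJ to PWK was 0.31 (SE 0.05, edgeR adjusted p = 5.48e-07). Rab11b, of the recycling endosome, ran from 2598 to 3243 in PWK, above every NOD library (2127 to 2546) and NZO library (2209 to 2571), with a difference from PWK to NOD of 0.29 (SE 0.06, adjusted p = 7.33e-06). The strains overlapped for Rab1a and Rab1b, which act between the endoplasmic reticulum and the Golgi. Rab1a had medians of 5572 in NOD to 7144 in CAST (0.29, SE 0.07, adjusted p = 9.83e-05), but with the marker sums as covariates NOD was the highest strain. Rab1b had medians of 2327 in 129 to 2860 in WSB (0.28, SE 0.04, adjusted p = 1.46e-07).

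The paralogs not yet given by strain include the Rab5 genes of early endosome fusion. The median of Rab5a ran from 1883 in NOD to 2552 in AJ, Rab5b from 2423 in PWK to 3043 in AJ, and Rab5c from 1694 in 129 to 2382 in NOD. Rab4a ran from 313 in PWK to 470 in WSB and Rab4b from 655 in 129 to 909 in PWK. All strains overlapped for these 5 genes. Rab8a went from 1241 in PWK to 1539 in NZO and Rab9, which had no strain effect, from 334 in 129 to 381 in NOD. The lower-level partners differed more, with Rab9b at 87.7 in CAST and 196 in 129 (log2 difference 0.95, SE 0.17, edgeR adjusted p = 1.61e-06) and Rab39 at 61.1 in WSB and 101.03 in NOD (0.63, SE 0.14, adjusted p = 4.12e-05). Rab39b had medians of 815 in NOD to 1208 in AJ. With the marker sums as covariates, NOD was the highest strain for Rab5a and no longer for Rab5c or Rab39.

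Outside the granule genes, Rab15 was higher in 129, at 130 to 219 normalised counts with a median of 185. WSB came next with a median of 97.4 (69.6 to 141), and the other strains had medians of 49.6 to 71.7. The log2 difference from 129 to WSB was 0.89 (SE 0.14, largest edgeR adjusted p = 8.5e-07), and the 129 and WSB ranges overlapped only between 130 and 141. Rab15 overlaps Fntb on the opposite strand. Rab17, an epithelial Rab, was high in AJ (median 86.2), WSB (79.4) and NZO (68.2) and had medians of 19.6 to 33.2 in the others, with a log2 difference from AJ to CAST of 1.91 (SE 0.19, adjusted p = 3.23e-15).

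Rab19 was low in CAST, at 31.2 to 85.6 with a median of 45, where WSB, the next strain, had a median of 88.5 and overlapped with it, as did AJ, B6 and PWK. Its log2 difference was -0.80 (SE 0.12, largest edgeR adjusted p = 6.37e-09). Rab40b, a part of ubiquitin ligase complexes, was low in the PWK libraries at 55.1, 63.2, 63.6, 69.7 and 71.0, while every other strain had a median of 119 or more and 1 NOD library, at 56.8, fell in the PWK range. The log2 difference from PWK to NZO was -0.95 (SE 0.17, largest adjusted p = 2.18e-06). Rab40b was also higher in AJ (median 183) than in each other strain, by 0.25 over 129 (SE 0.10, adjusted p = 0.0298), a call lost on log2 TPM (0.21), with the marker sums as covariates (0.12) and without the libraries against their sex label (0.25).

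Rab31, which acts between the Golgi and endosomes, was higher in CAST than in AJ, its nearest strain, by a log2 difference of 0.50 (SE 0.10, edgeR adjusted p = 2.06e-05), with 13.3 ± 4.65 TPM (n = 14) in CAST and 8.32 ± 2.58 (n = 77) in the other strains. On log2 TPM the difference was 0.15 and the call was lost. Rab13 was higher in NZO, with 117, 119, 145 and 161 normalised counts, than in NOD, with a median of 109, by 0.31 (SE 0.13, adjusted p = 0.041). This call was lost in 7 of 19 alternatives, among them TMM and median-ratio scaling, DESeq2 and the fits without NZO replicate 3 (0.27) or 4 (0.22). Rab20 was lower in 129, with a median of 115, than in the other strains (medians 194 to 332), by -0.84 from WSB (SE 0.24, adjusted p = 0.0127), and lost its call in 5 of 19 alternatives, among them limma-voom (-0.78), log2 TPM (-0.47), the marker covariates (-0.76) and the fit without NZO replicate 4 (-0.71).

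Small differences also passed. Rab21 in CAST was -0.18 from NZO (SE 0.07, edgeR adjusted p = 0.0261), and without NZO replicate 1 or 2 it was -0.17 or -0.14 with no call. TMM and median-ratio scaling and DESeq2 were also among the 9 alternatives that lost the call of Rab21. Rab11a in PWK was -0.22 from 129 (SE 0.08, adjusted p = 0.0253), a call lost at -0.19 to -0.22 without NZO replicate 1 or 2 or PWK replicate 2 or 4. In TPM, PWK was not the lowest strain for Rab11a. Its mean of 75.9 ± 21.8 (n = 5) lay under those of AJ (82.05), NZO (79.8) and 129 (77.3) and above those of the other strains, and on log2 TPM the difference to B6 was 0.27 with no call. Rab29 in AJ was -0.98 from WSB (SE 0.24, adjusted p = 0.00129) and -0.89, with no call, without NZO replicate 4. With the marker sums as covariates WSB was the lowest strain for Rab29, and AJ was above it by 0.06.

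In NOD, 7 of 57 Rab genes (12.3%) were higher than in each of the other strains, a share near the 11.3% of all tested genes. They were Rab5c, Rab7b, Rab8b, Rab19, Rab32, Rab35 and Rab43. Rab32 ran from 32.2 to 525 normalised counts there, with a median of 170, and the highest of the 81 other libraries was at 127. Rab7b had a range of 22.6 to 252 in NOD and at most 73.7 elsewhere. Rab8b, an exocytic Rab, ran from 429 to 1914 in NOD and up to 628 elsewhere. For these 3 genes 7, 7 and 8 of the 10 NOD libraries were above every other library, and the rest overlapped with other strains.

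The log2 difference to the nearest strain was 1.91 for Rab32 (SE 0.42, NZO), 1.52 for Rab7b (SE 0.39, NZO), 0.98 for Rab8b (SE 0.18, NZO) and 0.57 for Rab43 (SE 0.10, WSB), with largest edgeR adjusted p of 9.25e-05, 0.000907, 3.12e-06 and 0.000318. Rab19 (0.38, SE 0.12, adjusted p = 0.0249), Rab5c (0.25, SE 0.05, adjusted p = 0.00169) and Rab35 (0.16, SE 0.04, adjusted p = 0.00466, but -0.011 on log2 TPM) differed less. On log2 TPM the calls of Rab5c, Rab7b and Rab19 were lost. Rab19 lost its call without NZO replicate 1 (0.38) or PWK replicate 4 (0.34). Rab43 shares 74.5% of its 50-base stretches with another annotated gene, Gm45140, so its level is uncertain. Rab30, Rab38 and Rab29 also had their highest fitted level in NOD, but another strain was close.

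Rab30 had medians of 141 in NOD and 97.7 in PWK and of 9.51 (B6) to 22.2 (NZO) in the others, with a log2 difference from NOD to B6 of 3.94 (SE 0.32, edgeR adjusted p = 1.38e-19). Rab38 had medians of 29.5 in WSB and 22.2 in NOD. In PWK it was at 0, 0, 0.90, 1.02 and 1.58 normalised counts, under the floor of 3 counts, so no fold is given for its difference there. Rab29, a partner of the kinase Lrrk2, had medians of 122 in NOD and 20.9 in AJ, with a log2 difference of 2.71 (SE 0.26, adjusted p = 2.51e-15). With the marker sums as covariates, the widest difference of Rab30 was 2.83, between PWK and B6, and Rab29 had no strain effect (0.59, edgeR adjusted p = 0.0863).

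The NOD values moved with the leukocyte markers. In the 3 NOD libraries whose leukocyte sum was within the range of the other strains, up to 203 TPM, Rab8b was at 429 to 657, Rab32 at 32.2 to 82.3, Rab7b at 22.6 to 58.5, Rab43 at 895 to 1156 and Rab5c at 1829 to 1884 normalised counts. In the 7 others these genes were at 710 to 1914, 131 to 525, 75.8 to 252, 1460 to 2622 and 2056 to 3116. Over the 10 NOD libraries, log2 counts and log2 leukocyte sums, a comparison chosen after the values were seen, had a Pearson r of 0.97 for Rab8b (Spearman's rho 1.00, two-sided permutation p = 1e-05 for both, the smallest the draws can give). Without the 2 libraries farthest from the median sum, r was 0.96.

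Of 14 such relations computed, 12 were with leukocyte sums in NOD. Rab5c, Rab7b, Rab8b, Rab19, Rab29, Rab30, Rab32, Rab35, Rab38 and Rab43 had r between 0.86 and 0.98, with permutation p adjusted over the 14 of at most 0.00256, and between 0.74 and 0.99 without the 2 farthest libraries. Spearman's rho lay between 0.82 and 1.00 with adjusted permutation p of at most 0.00778. With leukocyte and acinar sums as covariates, NOD was no longer the highest strain for Rab5c, Rab7b, Rab19, Rab32, Rab35 and Rab43. The log2 differences from the highest other strain to NOD were between -0.53 and -0.06 for these genes. The difference of Rab8b to the nearest strain kept its direction but lost its call. The 2 relations with acinar sums, over the 14 AJ libraries, did not pass for Rab27b (r = 0.38, rho = 0.36, permutation adjusted p = 0.2 and 0.206) or Rab29 (r = 0.29, rho = 0.41, permutation adjusted p = 0.309 and 0.158). The AJ sums spanned only 1834 to 23830 TPM, where B6 reached 346475, so relations at higher acinar sums were not tested.

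Rab3b and Rab39b were lower in NOD than in each other strain, 2 of 57 (3.51%) against 5.04% of all genes. Rab39b, an X-linked gene mostly known from neurons, fell by 0.30 on the log2 scale from WSB (SE 0.09, edgeR adjusted p = 0.0104) and lost its call without PWK replicate 5 (-0.30). With the marker sums as covariates B6 was the lowest strain for Rab39b, and NOD was above it by 0.18. The r of Rab39b with the leukocyte sum was -0.85 (rho -0.85, adjusted permutation p = 0.00242 and 0.00403), and -0.86 without the 2 farthest libraries. Rab3b was low also in the 3 NOD libraries with low leukocyte sums, at 384 to 646 where the other strains started at 597. Its r was -0.61 (rho -0.59, adjusted permutation p = 0.0775 and 0.0935), -0.42 without the 2 farthest libraries, and its call held with the covariates.

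**Figure D5:**
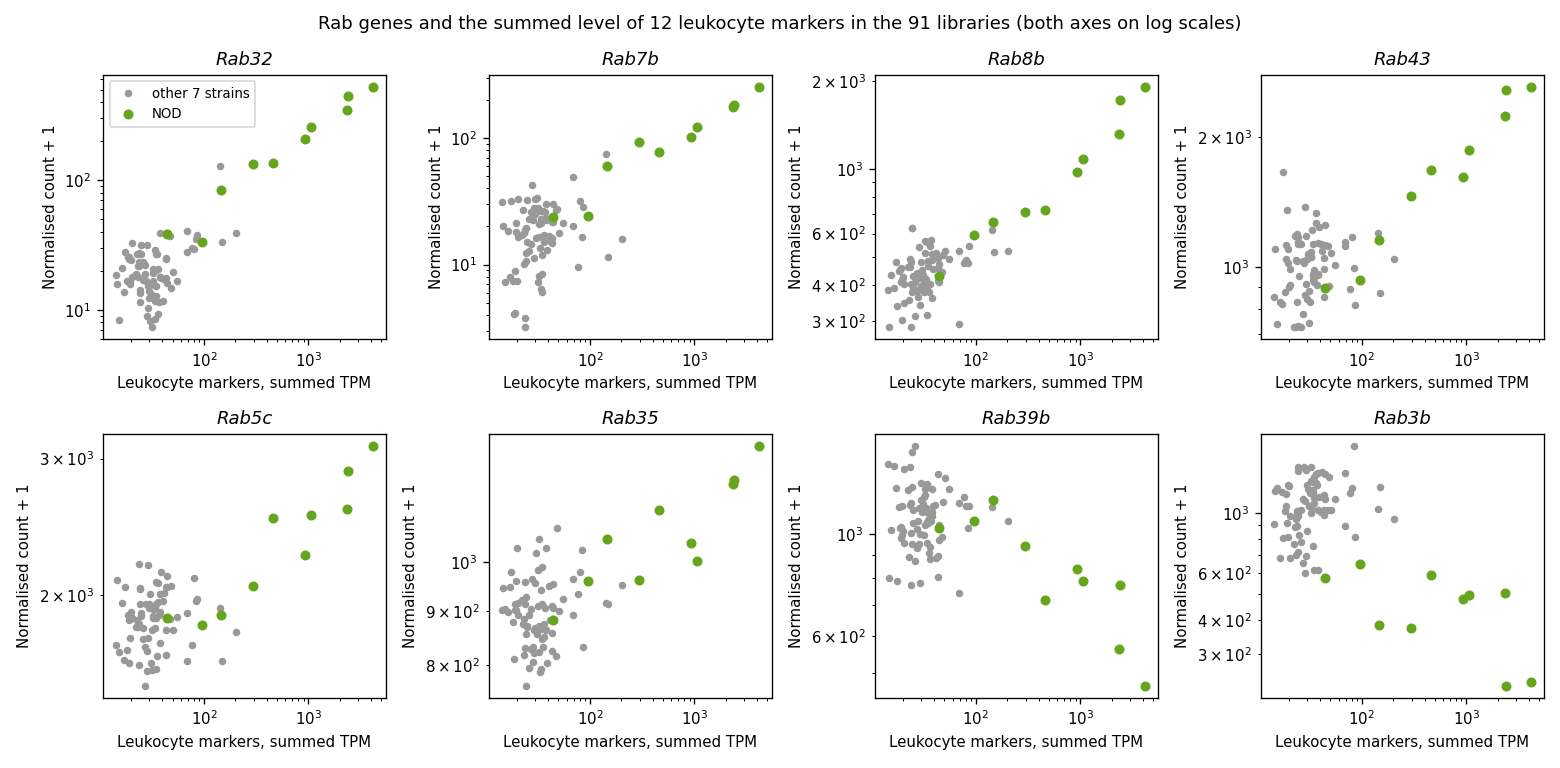
Normalised counts of 8 Rab genes (plus 1) against the summed TPM of 12 leukocyte markers in 91 libraries, both on log axes, with the 10 NOD libraries in green and the other strains in grey. In NOD, Rab32, Rab7b, Rab8b, Rab43, Rab5c and Rab35 rise with the marker sum and Rab39b goes down, and the NOD libraries with sums up to 203 TPM lie among or near the grey points, except for Rab3b, which is low in nearly all NOD libraries.

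Without the 12 libraries in 129, NOD and WSB that went against their sex label, the log2 differences to the nearest strain were 0.59 for Rab15 in 129, -0.68 for Rab3b, 1.39 for Rab32, 1.11 for Rab7b, 0.66 for Rab8b, 0.40 for Rab43 and 0.15 for Rab5c in NOD, and each kept its call. The calls of Rab19 (0.28), Rab35 (0.10) and Rab39b (-0.23) in NOD, Rab20 in 129 (-0.58), Rab11a in PWK (-0.20), and Rab27b (-0.79) and Rab40b (0.25) in AJ were lost.

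A sex effect was called for 2 of 57 Rab genes (3.51%), where 4.01% of all genes were called. Both were lower in males. Rab37 had a log2 difference, male minus female, of -0.20 (edgeR adjusted p = 0.0113) and Rab19 of -0.24 (adjusted p = 0.0181). Neither was called with limma on log2 TPM, and Rab19 lost its call without the NOD libraries and within AJ, B6, CAST and WSB. The count depended on the 12 libraries that went against their sex label. Without them, 11 Rab genes were called, against 9.79% of all genes. These were Rab3b, Rab3c, Rab3d, Rab15, Rab19, Rab22a, Rab33b, Rab34, Rab37, Rab39b and Rab43. Over 40 male and 39 female libraries, Rab3c (-0.31, SE 0.08, edgeR adjusted p = 0.00654), Rab15 (-0.30), Rab19 (-0.28), Rab37 (-0.22), Rab43 (-0.20), Rab3b (-0.19) and Rab22a (-0.07) were lower in males. Rab39b (0.19, SE 0.05, adjusted p = 0.00443), Rab3d (0.15), Rab34 (0.13) and Rab33b (0.10) were higher in males.

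The 95 regulators and effectors of Rab proteins listed beside the members were all tested, and all 95 had a strain effect, against 97.4% of all genes. Of these, 27 (28.4%) passed 2-fold, against 44.4% of all genes. Effectors made up 16 of the 27 (of 31 tested), exchange factors 8 (of 26), GTPase-activating proteins 2 (of 30) and the prenylation and recycling factors 1 (of 8). Higher in 1 strain than in each other were 24 (25.3%, against 25.8% of all genes), and 20 were lower (21.1%, against 21.7%). The count of 24 fell with the marker sums as covariates and on log2 TPM, where the shares of all genes were 13.9% and 13.5%. The 4 that were among the 5 with the largest fitted difference and also set 1 strain apart were each highest in NOD, namely the GTPase-activating protein Tbc1d10c and the effectors Sytl3, Mical1 and Unc13d, with mean TPM in NOD of 19.8 ± 24.4, 4.09 ± 2.83, 19.1 ± 20.1 and 10.4 ± 10.1 (n = 10) and of 0.564 ± 0.820, 1.37 ± 0.871, 2.35 ± 1.5 and 2.31 ± 1.53 (n = 81) elsewhere. Sytl3, an effector of Rab27, was also lower in NZO (0.148 ± 0.0900, n = 4) than in each other strain. The NOD libraries of these genes are those with the leukocyte sums given above, and the part of leukocytes in these 4 differences was not tested.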

How the data were processed

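The authors ran RSEM on the reads against the GENCODE vM18 annotation. The values they deposited are expected counts, without any scaling between libraries, and TPM values, scaled by transcript length and library. The submitters' processing notes name RSEM and mm10, and the RSEM version, the aligner and strand settings are not given in the sources used here. The mm10 assembly is the B6 reference, and how far a poorer match of other strains' reads enters the strain differences was not tested. Strain and sex came from the sample labels, and every file was treated as a separate library.

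Of the 54146 genes, 54079 were matched to GENCODE M21 for biotypes and coordinates. After the study's methods, the table was limited to protein-coding genes of chromosome X and the autosomes, the 10% with the lowest variance and those with non-zero counts in under 85% of libraries were removed, and 15204 were left of 21710, more than the study kept. The scale on which the study took the variance is not given in the sources used here. Expected counts were rounded and fitted with edgeR 4.0.16 (upper-quartile normalisation, strain and sex), and p-values were adjusted by Benjamini-Hochberg over all tested genes in each comparison. The fit was tested on simulated data. Paralog ratios were tested by 100000 permutations.

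Rab genes, roles, regulators and markers were listed with earlier results of these data known. All members were named, with values by strain for the 10 with the largest difference, those apart in 1 strain, the 10 most abundant, the granule genes and the paralog pairs. Transcripts were cut into 50-base stretches to find those shared with other genes. Alternatives were TMM and median-ratio scaling, 2 other filters, DESeq2, limma-voom, limma on log2(TPM + 0.1), fits without sex, with marker covariates, without libraries against their sex label, within AJ, B6, CAST and WSB with the library number range, without each NZO or PWK library and, chosen after seeing the data, without NOD. For ratios they were pseudocounts of 1 and 0.01 TPM, a level of 5 TPM and expected counts. No replicate number is shared between samples in the labels, and the waves of collection are not tied to libraries. The floor covers counting error only, while SD and SE values include the spread between libraries. ATAC-seq and Hi-C data were not analysed here.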

Additional observations from a re-analysis of the deposited data

Results flagged for a closer look

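In groups of 4 to 10 libraries, 100 groups of 25 Rab genes were checked for a library that stood far from the others of its strain, and chance gives such a gap in about 5% of groups. It was found in 7. PWK replicate 4 was the lowest library for Rab21 (10.7 TPM, next 20.3), Rab27a (45.1 TPM, next 90.8) and Rab35 (10.1 TPM, next 17.1), and its acinar markers summed to 314857 TPM. On normalised counts the gap was smaller, at 1606 (next 1772) for Rab21 and 4302 (next 5015) for Rab27a, and for Rab35 this library, at 912, was not the lowest. NZO replicate 4 was the highest for Rab29 (4.84 TPM, next 2.00) and Rab32 (2.52 TPM, next 0.830), with leukocyte markers at 144 TPM. On normalised counts these were 130 (next 50.7) and 127 (next 37.5). The same library was the only male of NZO, and its 5 ductal markers summed to 871 TPM, against at most 316 in the other NZO libraries. NOD replicate 10 was the highest for Rab3d (64.01 TPM, next 46.5), with leukocyte markers at 2411 TPM, but on normalised counts, at 4184, it was not the highest. In 129, replicate 10 was the highest for Rab20 (6.54 TPM, next 4.92), with leukocyte markers at 203 TPM. On normalised counts it was at 188 (next 129). The part of other cells in these values was not tested.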

How the results depend on the processing

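The strain differences of Rab6b in B6, Rab15 in 129, Rab19 in CAST, Rab3b in NOD, Rab3c in NZO and Rab40b in PWK kept their direction and call under every alternative run for them. With leukocyte and acinar sums as covariates, 7 Rab genes and 10 regulators were higher in 1 strain (13.9% of all genes, 25.8% as reported). In NOD, the log2 differences from the highest other strain were then -0.063 (Rab5c), -0.30 (Rab32), -0.091 (Rab35), -0.17 (Rab19), -0.43 (Rab43) and -0.53 (Rab7b). From the lowest other strain they were 0.18 for Rab39b in NOD, and 1.5 for Rab27b and 0.059 for Rab29 in AJ. With limma on log2(TPM + 0.1), 5 Rab genes and 7 regulators were higher in 1 strain (13.5% of all genes), and Rab11a in PWK (0.27, to B6) and Rab35 in NOD (-0.011) turned direction. The cause was not tested. Rab13 in NZO lost its call in 7 of 19 alternatives and Rab21 in CAST in 9 of 20, TMM and median-ratio scaling and DESeq2 among both.

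The number of Rab genes with a sex effect was 4 with DESeq2, 0 with limma on log2(TPM + 0.1), where 8 had an unadjusted p under 0.05 (edgeR 15), 11 without the libraries against their sex label, and 1 without the NOD libraries. Leaving out single NZO or PWK libraries, as leave-one-out settings, gave 2 to 5, with 5 without NZO replicate 4 and 4 without PWK replicate 5. The 2-fold count was 14 within AJ, B6, CAST and WSB with the library number range, where fewer strains are compared, 20 without NOD, and 19 with the covariates, where Rab8b, Rab26 and Rab29 dropped out. The shares of all genes were 23.3%, 39.4% and 38.7%. At a level of 5 TPM, 10 paralog pairs were left and all 10 differed, and 17 of 18 differed without the libraries against their sex label or without NZO replicate 4. No paired analysis was possible because the samples share no replicate numbers. Depth limits Rab33a, Rab38, Rab42 and Rab44, which had counts of 0 in some libraries, and NZO and PWK rest on 4 and 5 libraries. Leaving out NZO replicate 4, the only NZO male, or PWK replicate 5, the only PWK female, left 1 sex in that strain.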
